A study of Mus musculus with 29 samples.

Results

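Digits of mice with a cut nerve were compared with digits of sham-operated mice at the latest time point of a digit tip regeneration series, 21 days after amputation. The 5 libraries were those labelled with this day and 1 of the 2 surgeries, out of 29 libraries in the series and 17 in the table of the sham and nerve injury time course. In the spared nerve injury group (SNI, n = 3), 2 branches of the left sciatic nerve, the common peroneal and the tibial, had been transected, which leaves other nerves of the limb in place. The sham group (n = 2) had the same operation without transection. In both groups the left hindlimb digit was amputated through the third phalanx 5 days after surgery, and the regenerate was collected 21 days after that with the nail removed. Bulk poly(A) RNA was sequenced. The labels call the libraries biological replicates and do not give the strain, sex or age of the mice or whether a library held 1 digit or several.

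The mouse digit tip regrows when the cut passes through the terminal phalanx, and the regenerate contains epidermis, nail tissue, bone, connective tissue, vessels and nerve. Axons in the digit come from cell bodies that lie outside the tissue collected, so RNA of a nerve in such a sample is mainly RNA of its Schwann cells and of the sheath around them. A Schwann cell that wraps an axon expresses compact myelin proteins, lipid enzymes of myelin and junction proteins, under transcription factors that include SOX10 and EGR2. After loss of the axon it is known to lower this programme and to raise another, often called the repair state, with genes such as Gap43, Sox2, Ngfr and Gdnf. Skin appendages of the digit, including sweat glands and Merkel cells, are also innervated.

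The 2 sham libraries were unlike each other, which limits every comparison at this day. Total counts were 37656636, 35654192 and 43455578 in the SNI libraries, against 45319041 and 50578253 in the sham libraries. The 100 most abundant genes took 27.0%, 28.0% and 31.0% of the counts in SNI, against 39.6% in sham replicate 1 and 26.4% in sham replicate 2. On the first principal component, which held 63.7% of the variance of the 17 libraries, the SNI libraries lay at -31.5, 35.6 and 71.7, between sham replicate 1 at 141 and sham replicate 2 at -46.0. Only 24.8% of the 16084 genes tested were within 1.5-fold of each other in the 2 sham libraries, while SNI replicate 1 and sham replicate 2 were within 1.5-fold for 85.8%. Single genes set sham replicate 1 apart in both directions. Hbb-b1, a beta globin whose reads may be shared with its near copies, was at 218, 206 and 521 CPM (read counts scaled to library size) in SNI, against 2234 and 76.7 CPM in sham replicates 1 and 2. Col1a1, the main collagen of bone and dermis, was at 4575, 1617 and 564 CPM in SNI, against 99.0 and 4881 CPM in sham. For both genes the SNI libraries lay between the sham libraries. Whether the state of the RNA or the makeup of the tissue piece differed in sham replicate 1 was not tested.

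With these groups no gene was called at an adjusted p under 0.05 in either direction (edgeR quasi-likelihood test with Benjamini-Hochberg adjustment, 16084 genes, 0% called). The smallest adjusted p was 0.517. For SNI against sham at days 7 and 14, where each group had 3 libraries, the same fit also called 0 genes on either day. At an unadjusted p under 0.05 there were 354 genes at day 21, or 2.2%, of which 228 were lower in SNI (1.42%) and 126 were higher (0.783%). DESeq2 called 12 genes, and without sham replicate 2 edgeR called 148. The median log2 fold change of all genes, SNI over sham, was -0.10. Genes on which the groups did not overlap, with every SNI library on 1 side of both sham libraries, numbered 530 lower in SNI (3.3%) and 702 higher (4.36%). With the further condition that the sham libraries lay within 1.5-fold of each other, 408 genes were lower (2.54%) and 556 were higher (3.46%). All folds below are descriptions of these 5 libraries, and none passed the adjusted threshold in edgeR.

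Myelin genes were lower in SNI digits and had the lowest median fold change of 41 gene lists examined. That rank depended on the sham libraries, because against sham replicate 1 alone the list of erythroid (red blood cell) genes was lower. Its median log2 fold change was then -2.05, beside -1.49 for the myelin list. Of 18 Schwann cell myelin genes, all tested, 14 had a negative log2 fold change, and 10 had an unadjusted p under 0.05, all of them lower in SNI, beside 1.42% of all genes. For 9 of the 18 the groups did not overlap, all lower in SNI, beside 3.3% of all genes. The sham libraries lay within 1.5-fold of each other for 7 of the 18, beside 24.8% of all genes. With that condition 5 of the 9 remained, beside 2.54% of all genes. The list's median log2 fold change was -1.67, beside -0.10 for all genes. The list score, the mean log2 CPM of its genes, was 1.81, 1.54 and 2.10 in SNI, against 3.33 and 3.40 in sham. The sham libraries thus differed on this score by less than the SNI libraries did, and no SNI library came near them. Single genes of the list differed between the sham libraries by up to 7.61-fold and in both directions, so the close scores do not mean that each gene agreed. In bulk tissue, fewer Schwann cells and less of these RNAs per Schwann cell cannot be told apart.

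**Figure D1:**
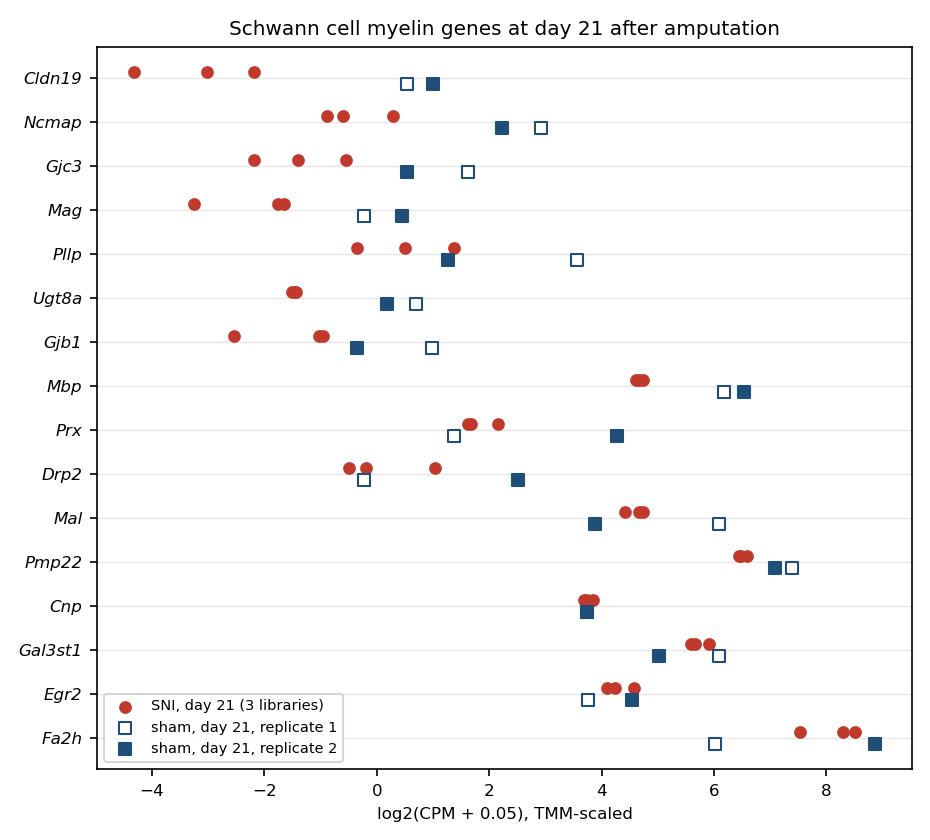
Level of 16 of the 18 Schwann cell myelin genes in each library at day 21, as log2 of CPM plus 0.05. Red circles are the 3 SNI libraries, the open square is sham replicate 1 and the filled square sham replicate 2. Mbp, Cldn19, Ugt8a and Pmp22 show close sham squares with all SNI circles to their left, while Prx, Drp2 and Fa2h have sham squares far apart.

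Mbp and Pmp22, both genes of compact myelin, separated the groups. Mbp, myelin basic protein of the cytoplasmic face of the sheath, was at 26.7, 24.5 and 25.3 CPM in SNI, against 72.8 and 92.2 CPM in sham. Its means were 25.5 ± 1.1 CPM in SNI (SD, n = 3) and 82.5 ± 13.8 CPM in sham (SD, n = 2), a log2 fold change of -1.69 ± 0.38 (SE, unadjusted p = 6.67e-04). Every SNI library held about the same Mbp level, and both sham libraries were well above it. Pmp22, peripheral myelin protein 22, was at 87.6, 89.0 and 96.0 CPM in SNI, against 168 and 135 CPM in sham. Its difference was the smallest of the 9 genes without overlap, with a log2 fold change of -0.74 ± 0.23 (SE). Pmp22 is also expressed by many cells other than Schwann cells.

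Of the other genes without overlap, several encode junction or membrane proteins. Ncmap, a protein of non-compact myelin, was at 0.608, 0.493 and 1.17 CPM in SNI, against 7.53 and 4.63 CPM in sham. At -3.0 ± 0.57 (log2 fold change, SE) it had the smallest p of the list (unadjusted p = 1.43e-04, adjusted p = 0.766). Cldn19, a claudin of the Schwann cell's tight junctions, was at 0.17, 0 and 0.0732 CPM in SNI, against 1.4 and 1.94 CPM in sham. Gjc3, a connexin of Schwann cells, was at 0.17, 0.329 and 0.635 CPM in SNI, against 3.03 and 1.4 CPM in sham. For these 3 genes each SNI library lay below both sham libraries, although Cldn19 and Gjc3 were close to the low end of what these libraries measure. Gjb1, the connexin of the gap junctions through myelin, and Mag, the glycoprotein that faces the axon, were also lower without overlap, at log2 fold changes of -1.94 and -2.46. Ugt8a, which makes the galactolipid of myelin, was at 0.316, 0.301 and 0.317 CPM in SNI, against 1.57 and 1.08 CPM in sham, a log2 fold change of -2.07 ± 0.48 (SE).

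Upstream sequence of Ncmap, Cldn19 and Gjc3 is shown because these genes separated the groups and have entries in the promoter table used here (RefSeq, GRCm38.p6, a build other than the GRCm39 of the submitters' processing notes). Each line gives the 250 bases before a gene's start, in the direction of the gene. Ncmap and Cldn19 have 2 entries each, of which the first is shown. Capitals mark matches, on either strand, to ACAANG, a short form of the motif bound by SOX proteins, or to GTGGGNG, a short form of the motif bound by EGR proteins. Ncmap lies on the minus strand (chr4:135398228-135398477), Cldn19 on the plus strand (chr4:119255191-119255440) and Gjc3 on the minus strand (chr5:137963099-137963348).
Ncmap: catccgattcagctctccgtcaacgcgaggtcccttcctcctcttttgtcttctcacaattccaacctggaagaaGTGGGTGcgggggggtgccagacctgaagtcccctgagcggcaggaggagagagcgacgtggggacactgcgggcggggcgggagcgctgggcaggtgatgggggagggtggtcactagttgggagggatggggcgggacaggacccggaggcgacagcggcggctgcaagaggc
Cldn19: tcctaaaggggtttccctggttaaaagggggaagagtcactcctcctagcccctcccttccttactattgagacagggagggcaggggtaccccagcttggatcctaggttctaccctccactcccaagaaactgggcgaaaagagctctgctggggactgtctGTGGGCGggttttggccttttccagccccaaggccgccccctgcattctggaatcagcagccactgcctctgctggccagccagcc
Gjc3: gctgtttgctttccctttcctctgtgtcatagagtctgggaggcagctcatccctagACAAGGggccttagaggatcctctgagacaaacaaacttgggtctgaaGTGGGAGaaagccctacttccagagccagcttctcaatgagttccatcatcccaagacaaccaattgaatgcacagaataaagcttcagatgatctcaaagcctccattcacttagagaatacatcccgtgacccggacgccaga

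Each of these windows holds 1 match to GTGGGNG, and the Gjc3 window also holds 1 match to ACAANG. Among the 32851 windows of this length in the table, 28.1% hold GTGGGNG and 36.3% hold ACAANG. Of the 29 windows of the 13 myelin genes with an entry, 41.4% hold GTGGGNG and 34.5% hold ACAANG. Both motifs are thus common in any window, and a match here only describes the letters.

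The other 9 myelin genes overlapped between the groups, and for several of them the sham libraries were far apart. Prx, periaxin, was at 4.4, 3.15 and 3.03 CPM in SNI, against 2.55 CPM in sham replicate 1 and 19.4 CPM in sham replicate 2. Drp2, which forms a complex with periaxin on the outer face of the myelinating Schwann cell, had the same pattern, with 2, 0.822 and 0.659 CPM in SNI, against 0.802 and 5.64 CPM in sham. Both were low in SNI relative to sham replicate 2 alone. Pllp, plasmolipin, went the other way, at 0.73, 1.37 and 2.54 CPM in SNI, against 11.8 CPM in sham replicate 1 and 2.37 CPM in sham replicate 2. Fa2h, a fatty acid hydroxylase that epidermis also uses, was at 365, 312 and 184 CPM in SNI, against 65.1 and 466 CPM in sham. Its SNI values all lay between the sham values, as did those of Mal. Cnp, which many tissues express, was level across the 5 libraries at 12.8, 13.3 and 14.3 CPM in SNI, against 13.4 and 13.2 CPM in sham, and its log2 fold change of 0.02 turned negative with RLE size factors. Egr2, the transcription factor of myelination that is also an immediate early gene, was at 23.8, 18.8 and 17.1 CPM in SNI, against 13.5 and 23.3 CPM in sham. Gal3st1 had a log2 fold change of 0.07.

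Against sham replicate 1 alone the list's median log2 fold change was -1.49, and against sham replicate 2 alone it was -1.45. Of the 41 lists, 29 had medians of opposite sign against the 2 sham libraries. Myelin genes and hard keratins of nail and hair were the 2 lists whose medians passed 0.5 in 1 direction against either sham library alone. The hard keratin median was 0.62 against sham replicate 1 alone and 0.70 against sham replicate 2 alone, but 0.39 against both.

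**Figure D2:**
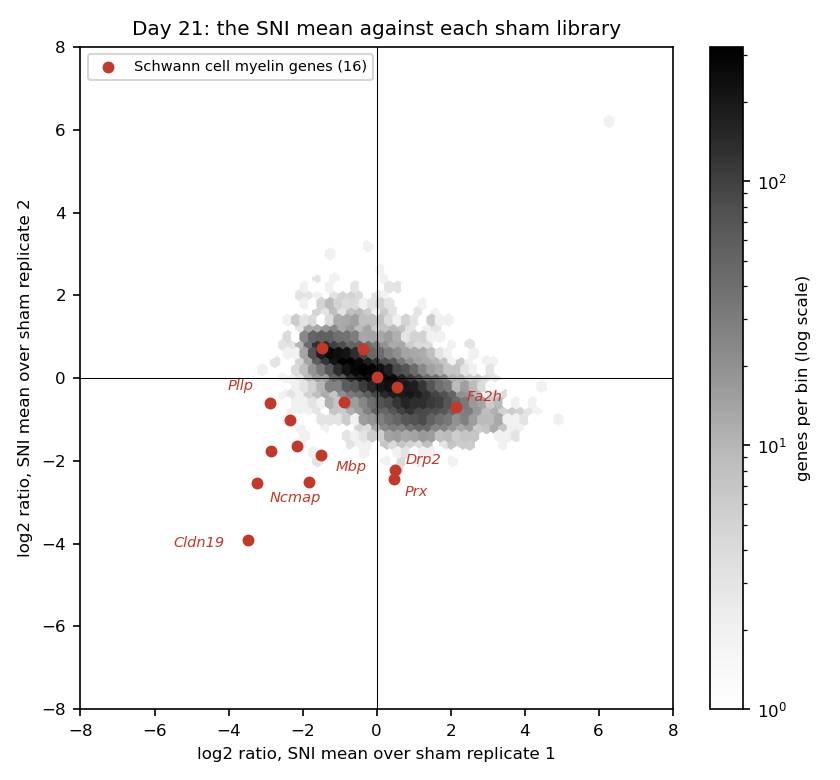
Log2 ratio of the SNI mean over sham replicate 1 (horizontal axis) and over sham replicate 2 (vertical axis) for every gene tested, with 0.05 CPM added. Grey shading counts genes per bin on a log scale and red points are 16 of the 18 myelin genes. Most genes lie along a falling diagonal, while Cldn19, Ncmap and Mbp lie at the lower left, below both sham libraries.

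Outside this list, Dhh, Pmp2 and Tmprss5 were among the genes named for their size of change or their p and were lower in SNI without overlap. Dhh, the hedgehog ligand that Schwann cells send to the perineurium, was at 1.07, 0.685 and 1.2 CPM in SNI, against 1.95 and 2.51 CPM in sham, a log2 fold change of -1.18 ± 0.34 (SE). Pmp2, a fatty acid binding protein of peripheral myelin, was at 0, 0.0274 and 0.122 CPM in SNI, against 9.1 and 1.38 CPM in sham. Tmprss5, a membrane serine protease, had no count in any SNI library, against 0.209 and 0.287 CPM in sham. With 3 counts over the SNI group as the floor, Tmprss5 was at least 9.81-fold lower in SNI, for counting error only. It had the smallest unadjusted p of all genes at 6.41e-05.

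The myelin list was compared with the same contrast at days 7 and 14. The median log2 fold change of the 18 genes was -0.98 at day 7, -0.34 at day 14 and -1.67 at day 21. Without overlap and lower in SNI were 5 of the 18 at day 7, 3 at day 14 and 9 at day 21, beside 23.8%, 12.2% and 3.3% of all genes. None of the 18 was higher without overlap on any day. At days 7 and 14 these counts were near the share of all genes. Day 21 had 2 sham libraries and the other days 3, so the condition differs between days and the counts do not make a time course. Ncmap was at 2.38, 0.852 and 0.798 CPM in SNI, against 4.31, 4.1 and 1.49 CPM in sham at day 7. At day 14 it was at 2.39, 4.45 and 2.49 CPM in SNI, against 3.12, 3.17 and 3.87 CPM in sham. The groups therefore overlapped in Ncmap at days 7 and 14 and not at day 21. Mbp was at 49.6, 18.9 and 28.6 CPM in SNI, against 111, 105 and 50.5 CPM in sham at day 7. It was thus lower without overlap at day 7 too, with the highest SNI value just under the lowest sham value. At day 14 Mbp was at 60.3, 89.9 and 51.4 CPM in SNI, against 73.6, 81.1 and 94.2 CPM in sham. Its day 14 log2 fold change of -0.30 ± 0.35 (SE) was small beside that of day 21. The difference in SNI effect between day 21 and the mean of days 7 and 14 was tested for every gene. It called 0 of 16084 genes (smallest adjusted p 0.344, 2306 genes at an unadjusted p under 0.05). Of the 18 myelin genes, 4 had an unadjusted p under 0.05 in that test, beside 2306 of all 16084 genes, and the median difference of the 18 was -0.90.

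**Figure D3:**
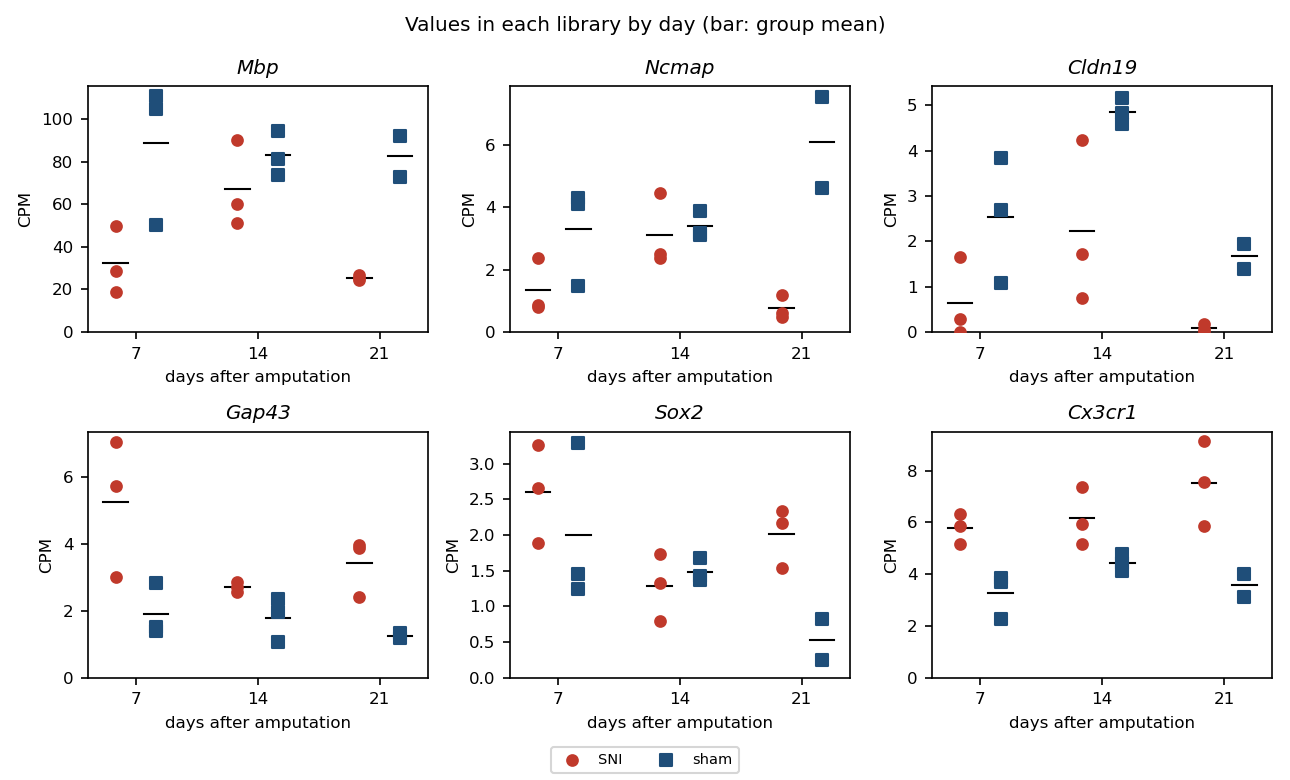
CPM of 6 genes in every sham and SNI library at days 7, 14 and 21, with SNI (red circles) left of sham (blue squares) and a bar at each group mean. Mbp and Ncmap are low in all SNI libraries at day 21 and overlap at day 14, and Mbp is also lower in SNI at day 7. Cldn19 is lower in SNI at days 14 and 21, and Gap43 and Cx3cr1 are higher in SNI at each day.

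Genes of Schwann cell identity, which mark the lineage whether or not it makes myelin, could not be read as a group at this day. Over these 12 genes the log2 fold changes had a median of -0.07, and sham replicate 1 was lower than sham replicate 2 by a median of 2.43 on the log2 scale. Sox10, the lineage's transcription factor, was at 5.91, 2.44 and 1.83 CPM in SNI, against 0.349 CPM in sham replicate 1 and 6.21 CPM in sham replicate 2. Erbb3, the neuregulin receptor that keratinocytes also express, was at 52.7, 28.3 and 16.8 CPM in SNI, against 3.66 and 69.6 CPM in sham. For both genes the SNI libraries lay between the sham libraries. A further 3 genes were higher in SNI without overlap, beside 4.36% of all genes, and for each the sham libraries were more than 3-fold apart. Ngfr, the low-affinity neurotrophin receptor, was at 25.5, 22.3 and 11.2 CPM in SNI, against 1.12 and 8.2 CPM in sham. Cdh19, a cadherin of Schwann cell precursors, was at 3.5, 3.45 and 4.54 CPM in SNI, against 0.767 and 2.71 CPM in sham. Foxd3, a neural crest factor, was at 2.51, 1.51 and 1.71 CPM in SNI, against 0.14 and 1.33 CPM in sham.

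Among 15 genes of the repair state, 10 had a positive log2 fold change, 2 had an unadjusted p under 0.05, both higher (beside 0.783% of all genes), and 3 were higher without overlap, beside 4.36% of all genes. The median was 0.28, and it was 0.89 against sham replicate 1 alone and -0.25 against sham replicate 2 alone. Gap43, a growth-associated protein, was at 2.41, 3.89 and 3.98 CPM in SNI, against 1.19 and 1.35 CPM in sham, a log2 fold change of 1.43 ± 0.44 (SE, unadjusted p = 0.00637). Both sham values of Gap43 were under every SNI value and close to each other. Bdnf, a neurotrophin, was at 11.8, 16.6 and 18.2 CPM in SNI, against 11.7 and 11.5 CPM in sham, so that the lowest SNI library was barely above sham. Sox2, which repair Schwann cells, Merkel cells and other cells express, was at 2.34, 1.53 and 2.17 CPM in SNI, against 0.244 and 0.826 CPM in sham, a log2 fold change of 1.86 ± 0.55 (SE). Its sham values were 3.38-fold apart, and its log2 fold change was 1.29 to 3.03 with 1 library left out, the 1.29 without sham replicate 1 and the 3.03 without sham replicate 2. Jun, the best-known driver of the repair state, was at 92.5, 61.9 and 48.4 CPM in SNI, against 38.5 and 95.6 CPM in sham. The glial ligand Gdnf was at 4.11, 2.52 and 1.245 CPM in SNI, against 1.01 and 2.48 CPM in sham, and Shh, Artn, Olig1, Runx2, Cdh2, Ncam1, Gfap, Tnc, Ucn2 and Megf10 also overlapped between the groups.

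Of 14 neuron and axon transcripts, 8 were too low to test, including the neurofilaments Nefl, Nefm and Nefh, which did not pass 0.215 CPM in any of the 5 libraries. Tac1, the precursor of substance P, was at 0.0973, 0.0274 and 0.0976 CPM in SNI, against 0.802 and 0.251 CPM in sham. It was the 1 gene without overlap of the 6 tested, beside 3.3% of all genes lower without overlap, and its level was low in every library. The 2 most abundant of the list were Tubb3 and Stmn2, and both overlapped between the groups. Tubb3, a neuronal tubulin that other cells also express, was at 42.8, 51.6 and 32.1 CPM in SNI, against 50.6 and 54.6 CPM in sham. Stmn2, a tubulin regulator of growing axons, was at 15.4, 17.7 and 19.9 CPM in SNI, against 39.4 and 18.6 CPM in sham. The neuron list score was at 0.72 to 0.90 in SNI, against 0.96 to 1.55 in sham, and the median log2 fold change was -0.23, or -0.55 without sham replicate 2. Genes of the perineurium and endoneurium had log2 fold changes with a median of -0.12. Of these, 0 of 11 separated the groups, beside 3.3% of all genes lower and 4.36% higher. Of 16 genes of skeletal muscle, another tissue that depends on nerve, 10 were too low to test, and Ckm, the muscle creatine kinase, did not pass 0.174 CPM.

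Genes on which both sham libraries agreed were ranked by size. Among genes with a mean of at least 1 CPM, sham values within 1.5-fold, no overlap and a name other than a predicted model, 295 were lower in SNI and 459 were higher. The 12 with the largest fall included Mbp and Dhh. Mstn, myostatin, a secreted inhibitor of growth, was at 1.56, 1.23 and 1.51 CPM in SNI, against 6.03 and 4.74 CPM in sham, a log2 fold change of -1.90 ± 0.41 (SE). The structural proteins of the upper epidermis and hair sheath Rptn (repetin) and Tchh (trichohyalin) were at log2 fold changes of -1.76 and -1.18. Rptn was at 33.0, 38.8 and 14.7 CPM in SNI, against 91.1 and 104 CPM in sham. The standard errors of 0.95 for Rptn and 1.05 for Tchh were large beside their fold changes. Clec3a, a lectin of cartilage, was at 36.0, 26.1 and 31.0 CPM in SNI, against 56.5 and 78.3 CPM in sham. Snx22, Mfsd4, Kcnq1ot1 and Zfp873 were also among the 12, as was Foxi1, which is described with the sweat gland. Kcnq1ot1 is read against the strand of Kcnq1, and no source used here says whether the counting used strand.

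The 12 with the largest rise held few genes of 1 kind. Fgf5, a growth factor known to end the growth phase of hair, was at 1.24, 3.26 and 2.2 CPM in SNI, against 0.663 and 0.736 CPM in sham. Cx3cr1, the fractalkine receptor of macrophages, was at 5.86, 7.56 and 9.15 CPM in SNI, against 3.14 and 4.02 CPM in sham, a log2 fold change of 1.07 ± 0.28 (SE, unadjusted p = 0.00191). It was the 1 macrophage gene of 14 without overlap, beside 4.36% of all genes, and 9 of the 14 had a negative log2 fold change, with a median of -0.24. Pgr, the progesterone receptor, was at 5.5, 4.55 and 4.25 CPM in SNI, against 2.02 and 2.44 CPM in sham. Slc7a11, the cystine transporter, was at 107, 68.1 and 65.2 CPM in SNI, against 41.7 and 34.0 CPM in sham. Ptx3, a secreted pentraxin of innate immunity, was at 12.1, 24.1 and 8.15 CPM in SNI, against 5.41 and 7.63 CPM in sham. All 3 of these genes were higher in each SNI library, with Ptx3 closest to overlap. Krtap13, Krt83, Serpina3m, H2-Q8, Cyp2b23 and Cyp4f37 belong to families of similar genes whose reads the counting may have split, and Gap43 completed the 12.

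**Figure D4:**
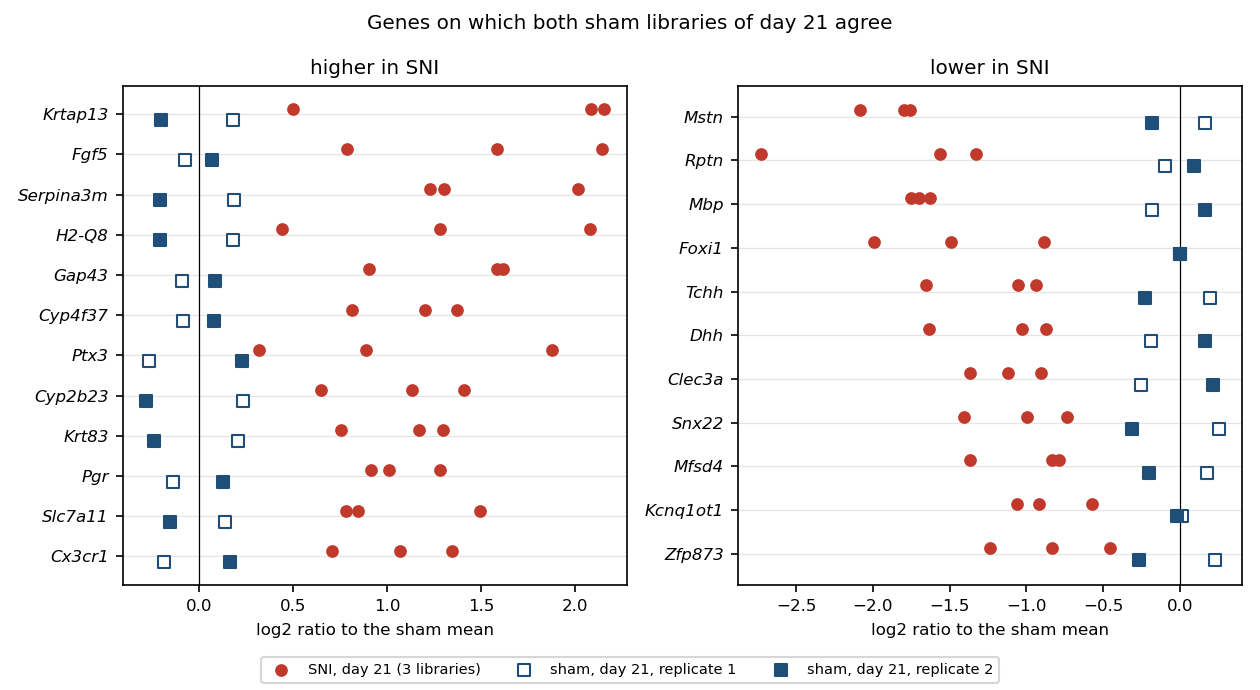
Log2 ratio of each day 21 library to the sham mean, with 0.05 CPM added, for the 12 genes with the largest rise (left) and 11 of the 12 with the largest fall (right) among genes on which the sham libraries agreed within 1.5-fold. Red circles are SNI libraries and squares are sham libraries. The falls shown run from Mstn, with a fitted log2 fold change of -1.90, to Zfp873 at -0.82.

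The genes of smallest p were mostly lower in SNI. Of the 10 with the smallest p, 9 were lower, 3 were myelin list genes (Ncmap, Mbp and Ugt8a), and Pmp2, Mstn and Tmprss5 are given above. Oit1 was at 0.0243, 0.0822 and 0.0244 CPM in SNI, against 0.942 and 0.646 CPM in sham. Ccdc96, a protein of cilia, was at 0.122, 0.0548 and 0.0488 CPM in SNI, against 0.419 and 0.467 CPM in sham. Both were low in every library. Gm6537, a predicted gene model, was at 3.63, 3.83 and 5.96 CPM in SNI, against 13.9 and 18.0 CPM in sham. Luzp2 was the 1 gene of the 10 that was higher, at 0.779, 0.904 and 0.781 CPM in SNI, against 0.209 and 0.215 CPM in sham.

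Hard keratins, the structural proteins of nail and hair, had a positive log2 fold change in 11 of 13 genes, with a median of 0.39. Higher without overlap were 5, beside 4.36% of all genes. Krt84 was at 601, 495 and 356 CPM in SNI, against 255 and 349 CPM in sham. Krt31 was at 542, 524 and 389 CPM in SNI, against 257 and 238 CPM in sham, and Krt83 and Krt33b were higher in the same way. The list score was at 7.92 to 8.25 in SNI, against 7.50 to 7.80 in sham. Krt31 had a log2 fold change of 0.97 with a standard error of 1.06, and 0 genes of the list had an unadjusted p under 0.05. At day 14 the list's median was -0.99 and all 13 genes were negative. The nail had been removed before RNA was made, and how much of its matrix remained was not tested.

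Of 15 sweat gland genes, 11 had a negative log2 fold change and 4 a positive one, up to 0.31, with a median of -0.16 beside -0.10 for all genes. Lower without overlap were 3, beside 3.3% of all genes, and higher were 0, beside 4.36%. The list score overlapped between the groups, at 3.67, 3.42 and 3.15 in SNI, against 3.71 and 3.65 in sham. Without SNI replicate 1 the median was -0.38, and without sham replicate 2 it was -0.28. Foxi1, a transcription factor of ion-transporting cells, was at 2.12, 1.37 and 0.952 CPM in SNI, against 3.94 and 3.95 CPM in sham, a log2 fold change of -1.41 ± 0.57 (SE). Krt8 and Krt18, the paired keratins of simple epithelia, sweat gland and Merkel cells, were also lower. Krt8 was at 8.44, 6.71 and 6.47 CPM in SNI, against 11.0 and 8.96 CPM in sham. Krt18 was at 6.3, 6.44 and 4.81 CPM in SNI, against 13.8 and 6.79 CPM in sham, where 1 sham library was close to the SNI range. Aqp5, the water channel of the gland's secretory cells, was at 127, 153 and 166 CPM in SNI, against 256 and 159.6 CPM in sham and overlapped. Krt20, a keratin of Merkel cells, was at 0.073, 0.246 and 0.122 CPM in SNI, against 0.349 and 0.269 CPM in sham. The Merkel cell list had 6 genes tested, of which 4 had a negative log2 fold change and 2 a positive one. Among them 3 were lower without overlap, beside 3.3% of all genes, and 1, Sox2, was higher, beside 4.36%. The score of the Merkel cell list overlapped between the groups. Atoh1, the factor that defines Merkel cells, did not pass 0.0822 CPM in any library and was too low to test.

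Wound keratinocyte genes, induced in epidermis that closes a wound, were negative in 10 of 12 genes, and the median of their log2 fold changes was -0.57. With 1 library left out that median was -0.88 to -0.22, the -0.88 without SNI replicate 2 and the -0.22 without sham replicate 2. Lower without overlap were 2 of them, beside 3.3% of all genes. Krt17 was at 657, 995 and 895 CPM in SNI, against 1236 and 1013 CPM in sham. S100a8, a calprotectin subunit of such epidermis and of neutrophils, was at 2.04, 7.45 and 16.5 CPM in SNI, against 108 and 22.5 CPM in sham. At day 7 the list's median was 1.35, higher in SNI. Proliferation genes, which mark dividing cells, were negative in 15 of 18 with a median of -0.28, beside -0.10 for all genes, and 1 was lower without overlap, beside 3.3% of all genes. With 1 library left out this median was -0.44 to -0.15, the -0.44 without SNI replicate 1 and the -0.15 without SNI replicate 2.

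**Figure D5:**
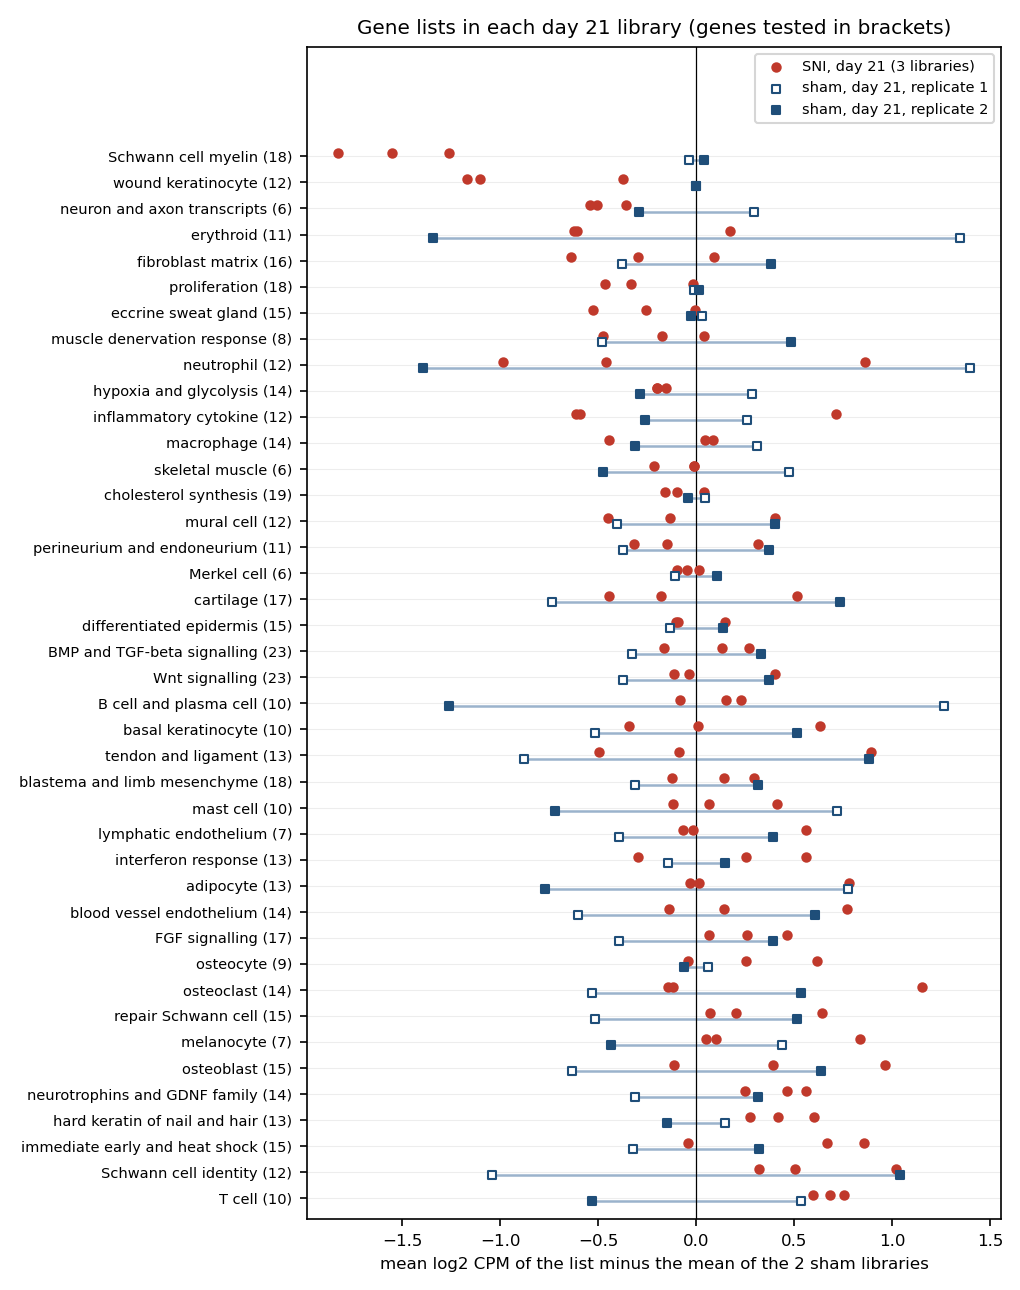
Mean log2 CPM of each of 41 gene lists in each day 21 library, as the difference from the mean of both sham libraries, with the number of genes tested in brackets. Red circles are SNI libraries, open squares sham replicate 1 and filled squares sham replicate 2, joined by a line. For 13 lists all SNI circles lie between the sham squares, and the myelin list has the lowest SNI circles with sham squares close together.

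Few separations held at all 3 days. Of the 530 genes lower without overlap at day 21, 74 (14.0%) were also lower at day 7 and 85 (16.0%) at day 14, beside 23.8% and 12.2% of all genes on those days. Of the 702 higher genes, 53 (7.55%) were also higher at day 7 and 111 (15.8%) at day 14, beside 13.7% and 11% of all genes. Lower at all 3 days were 18 genes (0.112%) and higher at all 3 days were 22 (0.137%), and no myelin list gene was among them. Gap43 and Cx3cr1 were among the 22, and Oit1 was among the 18. The following were picked from these genes after their values were seen. Angpt1, an angiopoietin of vessel support cells, was at 7.96, 6.19 and 6.1 CPM in SNI, against 4.26 and 4.31 CPM in sham at day 21, and its log2 fold changes were 0.53, 0.48 and 0.66 at days 7, 14 and 21. Steap4, a metalloreductase, was at 63.4, 59.1 and 61.9 CPM in SNI, against 41.1 and 41.9 CPM in sham at day 21. Adcyap1r1, the receptor of the neuropeptide PACAP, was at 10.3, 8.02 and 12.7 CPM in SNI, against 7.43 and 6.44 CPM in sham. These 3 genes had close sham values at day 21 and folds under 2. On the lower side, Atp1b1, a subunit of the sodium pump, was at 49.7, 52.7 and 30.1 CPM in SNI, against 81.0 and 71.6 CPM in sham. Nfib, a transcription factor, was at 176, 115 and 94.0 CPM in SNI, against 177 and 178 CPM in sham, so that 1 SNI library was level with sham.

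The 5 genes of smallest p in the test of day 21 against days 7 and 14 all had a lower SNI effect at day 21. Each had an adjusted p of 0.344 (edgeR quasi-likelihood test with Benjamini-Hochberg adjustment). Epyc, a proteoglycan of cartilage, was at 4.75, 5.09 and 5.93 CPM in SNI, against 8.3 and 15.7 CPM in sham at day 21, and its log2 fold change was -1.19 at day 21 and 1.68 at day 14. Slc35g2, a solute carrier, was at 0.657, 1.04 and 0.976 CPM in SNI, against 2.34 and 1.4 CPM in sham, and its log2 fold changes were 1.03, 1.33 and -1.06 at days 7, 14 and 21. For both genes every SNI library lay below sham at day 21. Sprr2e, a small proline-rich protein of the cornified envelope, was at 0.316, 0.931 and 0.61 CPM in SNI, against 5.44 and 0.556 CPM in sham, and Apoa2, an apolipoprotein, was at 0.122, 0.0822 and 0.0976 CPM in SNI, against 1.12 and 0.0898 CPM in sham. In both the difference at day 21 came with a high value in sham replicate 1 alone. Hist1h2bg, a histone gene of a family with near-identical copies, was at 0.122, 0.0548 and 0.269 CPM in SNI, against 1.05 and 0.431 CPM in sham.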

How the data were processed

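Raw counts per gene were used as deposited by the authors. Libraries were made with a strand-specific poly(A) kit, per the labels' protocols. The genome build was GRCm39, per the submitters' processing notes, and no source used here names the aligner or the counting tool. The table lists 24411 genes. Genes were filtered with filterByExpr (minimum count 10, minimum total 15), which left 16084, normalized by TMM and fitted in edgeR 4.0.16 (R 4.3.3) by the robust quasi-likelihood method with 1 mean per surgery and day over 17 libraries, so that all groups share 1 estimate of spread. SE is the size of the log2 fold change divided by the square root of F. P values were adjusted by Benjamini-Hochberg over all genes tested. CPM uses TMM-scaled library sizes. List scores are mean log2 CPM with a prior count of 2. Counts without overlap carry no p value. P values weigh a difference against the spread between libraries of a group, as estimated over all 17 libraries.

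The procedure was run on simulated counts drawn from 1 mean per gene, with known changes added to SNI at day 21. No simulated library was made to deviate as sham replicate 1 does, so that run cannot show how the procedure handles such a library. Named genes were the 10 of smallest p, the 12 largest changes each way among genes on which the sham libraries agreed, the 5 of smallest p for the difference between days, genes that separated the sham libraries, all Schwann cell list genes and up to 6 of smallest p in other lists. The libraries and lists were chosen with earlier results of these data known. Mitochondrially encoded genes and Flg, Ly6g, Trac, Trbc2, Ighm and Ahsp are not analysed here, and 2 myelin list genes that enter the list's counts and scores are not reported here singly. Alternatives used DESeq2 1.42.0 and limma 3.58.1.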

Additional observations from a re-analysis of the deposited data

Results flagged for a closer look

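The following lay on opposite sides of sham on different days, with every SNI library above every sham library on 1 day and below on another, or likewise for a list score. S100a8 was lower in SNI at day 21 (log2 fold change -2.91) and higher at days 7 and 14 (7.55 and 4.86). The calprotectin gene was at 19.4, 4422 and 54.8 CPM in SNI, against 12.5, 5.05 and 6.48 CPM in sham at day 7, where 1 SNI library stood far above the others. Slc35g2, a solute carrier, was lower at day 21 (-1.06) and higher at days 7 and 14 (1.03 and 1.33). Epyc, a cartilage proteoglycan, was lower at day 21 (-1.19) and higher at day 14 (1.68). Slc7a11 was higher at day 21 (1.08) and lower at day 14 (-0.91), and Cdh19 was higher at day 21 (1.12) and lower at day 14 (-0.35). The day 21 effect against the mean of days 7 and 14 had an adjusted p of 0.344 for S100a8, Slc35g2, Epyc and Cdh19 and of 0.362 for Slc7a11 (edgeR), and the difference between single days was not tested. The wound keratinocyte score was below sham at day 21, with a median log2 fold change of -0.57 (-0.22 without sham replicate 2), and above it at day 7 with a median of 1.35, and that difference was not tested.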

How the results depend on the processing

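The count of genes called at day 21 was 0 in edgeR with RLE size factors, without a filter, with only the day 21 libraries and in limma voom. It was 12 with DESeq2 and 0 to 148 with 1 library left out, the 148 coming without sham replicate 2, when 2 myelin genes were called (Ncmap and Pllp). Of the 12 DESeq2 genes, 8 were lower, among them Ncmap (-3.05), Mbp (-1.72), Mstn (-1.94), Oit1 (-4.25), Tmprss5 (-5.79) and Gm6537 (-1.86), and Stc2 was higher (0.94). The test of day 21 against days 7 and 14 called 9 genes with DESeq2, and 0 to 7067 with 1 library left out, the 7067 again without sham replicate 2. Genes without overlap numbered 994 to 6754 higher and 793 to 6589 lower with 1 library left out, and 742 to 925 and 554 to 647 with sham agreement required. The myelin median was between -1.78 and -1.44 under every alternative run. It was -1.45 against sham replicate 2 alone and -1.44 when the pair with TMM factors below 0.8 was dropped (sham replicate 1 of day 21 and SNI replicate 2 of day 7), an alternative chosen after seeing the data. The hard keratin median was 0.32 to 0.70 with 1 library left out and 0.62 in limma voom. The median of all genes was between -0.15 and 0.09.

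Signs that turned were these, and the cause was not tested. With 1 library left out, log2 fold changes ranged from -2.45 to 0.47 for Prx, -2.27 to 0.53 for Drp2, -1.48 to 0.73 for Mal, -1.09 to 3.16 for Erbb3, -0.23 to 0.57 for Egr2, -0.37 to 0.70 for Gal3st1, -0.69 to 2.14 for Fa2h, -0.86 to 3.28 for Sox10 and -0.0094 to 0.055 for Cnp. Without that pair, Mal was at 0.73, Egr2 at -0.23, Fa2h at -0.69 and Sox10 at -0.86. Cnp was at -0.013 with RLE and -0.012 with DESeq2, and Erbb3 was at 0.33 in limma voom. With replicate number as a block, 0 genes were called (264 at an unadjusted p under 0.05), Gal3st1 was at -0.053 and Sox10 at -0.11. Deviations of same-numbered SNI and sham libraries from their group means correlated at 0.387, 0.241 and -0.0933 at day 7. The values were 0.243, 0.147 and 0.105 at day 14 and -0.787 and -0.243 at day 21, and 5 of 8 pairs passed 0.1. At day 21 the 2 sham libraries deviate from their mean by equal and opposite amounts, so those values cannot test pairing. The main fit did not pair samples by number, and whether the numbers mark pairs was not tested. Depth limits genes under about 1 CPM.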

Other observations

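Immune genes gave 1 list whose scores were higher in SNI at every day. The T cell score was at -0.27 to -0.12 in SNI, against -1.41 to -0.34 in sham at day 21, and the groups were also apart at days 7 and 14. Of its 10 genes tested, 7 had a positive log2 fold change and 3 a negative one at day 21, and 2 were higher without overlap, beside 4.36% of all genes. These were Cd3e and Gzmb. Cd3e, a chain of the T cell receptor complex, was at 1.46, 1.15 and 1.15 CPM in SNI, against 0.628 and 0.61 CPM in sham at day 21, a log2 fold change of 1.01 ± 0.29 (SE, edgeR, unadjusted p = 0.00331). Gzmb, a granzyme of cytotoxic cells, was at 0.9, 2.77 and 0.659 CPM in SNI, against 0.244 and 0.126 CPM in sham. All of these levels are low, Cd8a did not pass 0.171 CPM, and against sham replicate 1 alone the list's median log2 fold change was -0.23, while it was 1.51 against sham replicate 2 alone. Cnn1, a contractile protein of smooth muscle, was at 7.91, 5.92 and 5.93 CPM in SNI, against 11.8 and 8.83 CPM in sham.

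Some genes called by DESeq2 were present or absent library by library in both groups. Gm14430 had no count in the 3 SNI libraries, against 20.0 and 9.08 CPM in sham at day 21, and it was at 0 in 8 of all 17 libraries. Gm10591 was at 5.33, 0 and 13.9 CPM in SNI, against 0 in both sham libraries, and at 0 in 11 of 17. Gm14308, Gm21541 and Mup14 had no count in 6, 10 and 8 of the 17 libraries. These are predicted or multigene family members, and the part of read assignment in their values was not tested.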
